A study of Mus musculus with 83 samples.

Results

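The carbonic anhydrases are the enzymes that interconvert carbon dioxide with bicarbonate and protons. RNA of 10 of their genes (Car1, Car2, Car3, Car4, Car5b, Car7, Car8, Car9, Car12 and Car13) was followed through adult life in the mouse colon. The genes were chosen by name, their rows were found by Ensembl identifier, and all 10 were present among the 37764 genes of the count table and among the 18325 genes that passed the filter on low counts. In the colon these enzymes supply the bicarbonate and protons that the surface cells exchange for chloride and sodium, so they take part in salt and water uptake and in the control of luminal pH. The family is divided by where the protein sits. Car1, Car2, Car3, Car7 and Car13 encode cytosolic enzymes, Car5b a mitochondrial enzyme, Car4, Car9 and Car12 enzymes held at the cell surface, and Car8 a related protein that lacks the catalytic activity.

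The colon of 83 male C57BL/6J/Ukj mice was sequenced as bulk polyadenylated RNA, from 16 mice aged 3 months, 16 aged 9, 16 aged 15, 17 aged 24 and 18 aged 28 months. The labels give no genotype or treatment besides age, and according to the methods the tissue came from its proximal end. Each library comes from 1 mouse and was prepared in 1 of 3 library batches, every one of which held mice of all 5 ages. All mice were male and of 1 inbred strain, so females and other strains were not examined.

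The libraries held 23026370 to 75838290 counted fragments each. The epithelial markers (Epcam, Cdh1, Krt8, Krt18, Vil1 and Cldn7) were present in all mice, with a summed level of 5543 to 10716 CPM (counts relative to the TMM-scaled size of each library). Smooth muscle was part of the tissue, at 828 to 5375 CPM over 6 markers. In 4 mice, of which 3 were aged 3 months and 1 was aged 9 months, the smooth muscle sum lay below 1300 CPM, and in 1 mouse aged 15 months the epithelial sum lay below 6000 CPM. Calls that were lost or gained when these 5 mice were left out are given beside the result. Of the distal colon genes, Hoxa13 and Hoxb13 were detected at mean levels of 25.5 and 19.3 CPM, whereas Hoxd12 was near 0 (0.0407 CPM), and the summed level of the list differed widely between mice (18.4 to 83.4 CPM).

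The levels of the 10 genes spanned more than 4 orders of magnitude. On the TPM scale, which corrects for transcript length, Car1 averaged 16248 ± 3391 TPM (SD, n = 83), a rank of 4 among all genes by mean TPM. Car1 made up 89.3% ± 1.84 (SD, n = 83) of the summed TPM of the 10 genes. Car2 followed at 855 ± 77.8 TPM and Car4 at 707 ± 115 TPM, which placed them at ranks 131 and 157. Car9 (103 ± 8.79 TPM), Car8 (82.9 ± 14.5 TPM), Car13 (58.7 ± 6.30 TPM), Car12 (48.8 ± 6.94 TPM) and Car3 (33.3 ± 38.6 TPM) formed a middle group, while Car5b and Car7 averaged 0.966 ± 0.482 and 0.955 ± 0.242 TPM.

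Within single mice this order was firm at some steps and open at others. Car1 exceeded Car2, Car4 exceeded Car9, and Car3 exceeded Car5b in 83 of 83 mice. Car2 exceeded Car4 in 69 of 83 mice, with 12 of 16 at 3 months and 18 of 18 at 28 months. The levels of Car9 and Car8, of Car13 and Car12, and of Car12 and Car3 overlapped between mice, although Car9 was above Car8 in 71 mice, Car13 above Car12 in 75 and Car12 above Car3 in 64. Car5b and Car7 could not be ordered, since Car5b was the higher of the 2 in 33 of 83 mice. These are levels of RNA in whole tissue and say nothing of enzyme activity.

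**Figure D1:**
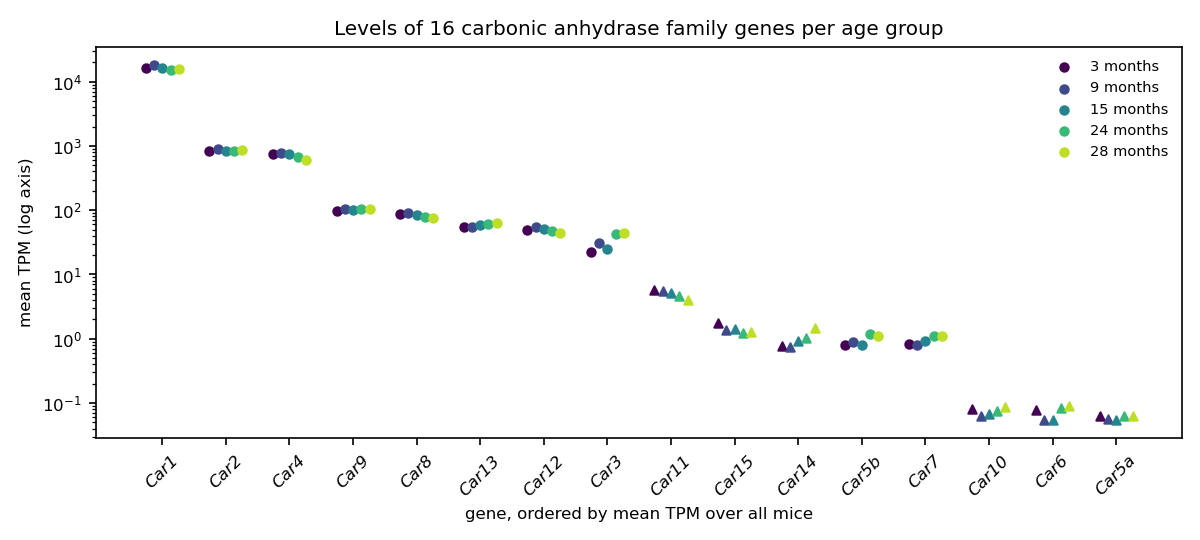
Mean TPM (log axis) of the 16 carbonic anhydrase genes listed in the table, 1 symbol per gene and age group, ordered by the mean over all 83 mice. Circles are the 10 genes described here and triangles are the other 6 family genes. Car1 lies far above the others at every age, while neighbours such as Car5b and Car7 differ by less than the ages do.

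Car13, Car1, Car3 and Car2 lie near each other on chromosome 3. On GRCm38, Car13 (chr3:14641727-14663002, plus strand), Car1 (chr3:14766216-14808368, minus strand), Car3 (chr3:14863512-14872523, plus strand) and Car2 (chr3:14886273-14900770, plus strand) lie within 259044 bp, with gaps of 103213, 55143 and 13749 bp between them. The mean levels of these 4 neighbours differed from 33.3 TPM for Car3 to 16248 TPM for Car1, and their age differences went separate ways, as described below. The others are dispersed, with Car8 (chr4:8143362-8239041) and Car9 (chr4:43506966-43513729) far apart on chromosome 4, Car7 on chromosome 8 (chr8:104534689-104550343), Car12 on chromosome 9 (chr9:66713686-66766845), Car4 on chromosome 11 (chr11:84957786-84966044) and Car5b on the X chromosome (chrX:163976822-164027997).

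Across the 5 ages, 7 of the 10 genes differed in the test of any difference among ages (edgeR, adjusted p below 0.1, age and library batch in the model), against 54.9% of all genes tested. Car1, Car4, Car5b, Car7, Car8, Car12 and Car13 passed this test, of which Car5b was lost without the 5 mice of low marker level and with a smooth muscle score as a covariate. Car2 (adjusted p = 0.155), Car9 (adjusted p = 0.173) and Car3 (adjusted p = 0.315) did not. Between the youngest and the oldest mice, 28 against 3 months, 3 of the 10 genes were higher (Car5b, Car7 and Car13, background 23.5% of all genes tested) and 3 were lower (Car4, Car8 and Car12, background 25.9%). Both shares are near those of all genes. Without the 5 mice of low muscle or epithelial marker level 6 genes were again called, of which 5 were shared, with Car9 in place of Car5b. The median log2 fold change of the 10 genes was 0.05, and that of all genes tested was -0.01. In bulk tissue, fewer cells of a type and less RNA per cell cannot be told apart.

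**Figure D2:**
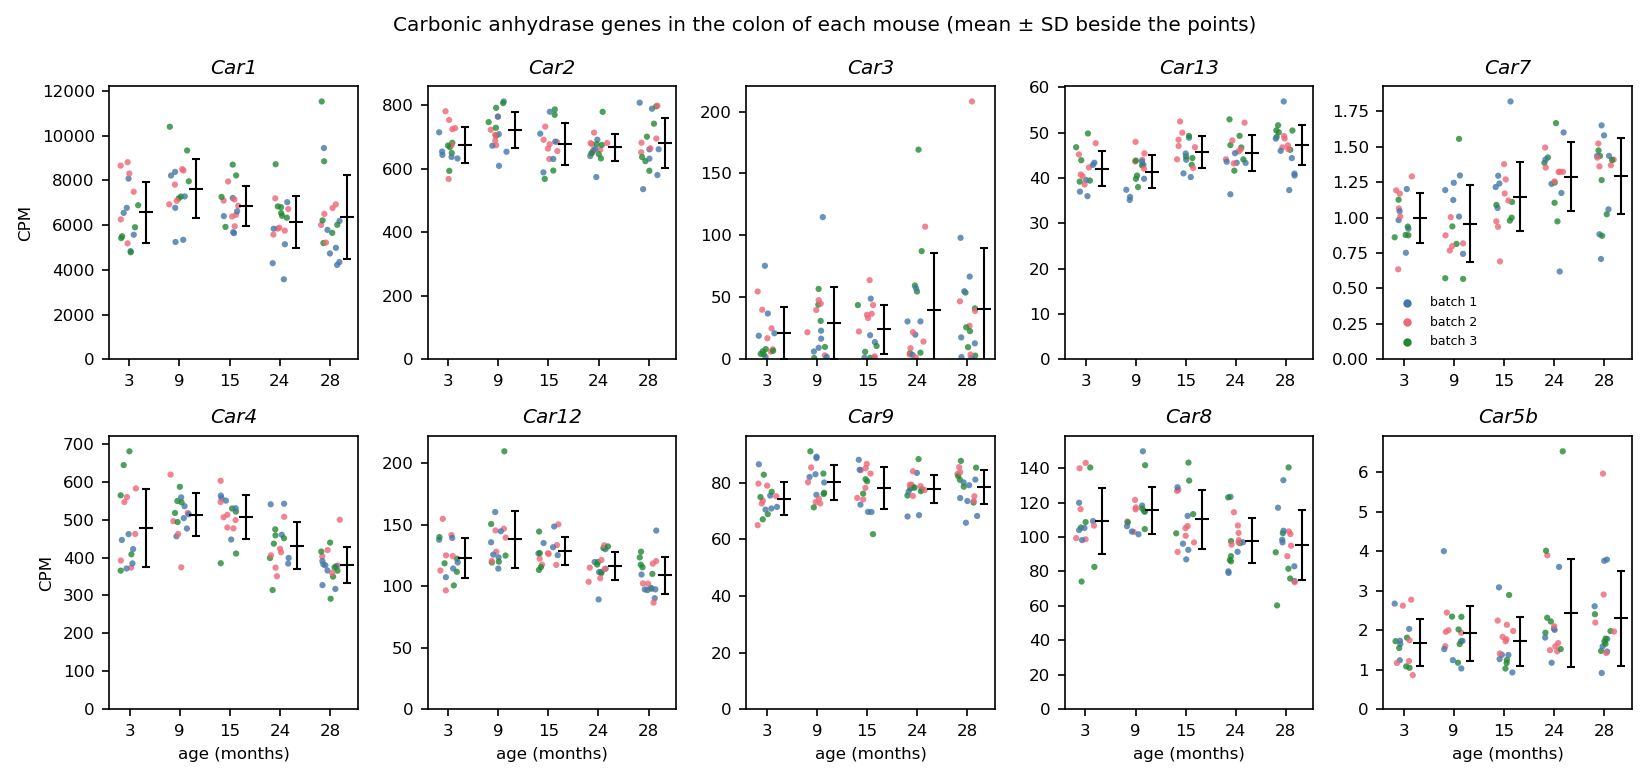
CPM of each of the 10 genes in each of the 83 mice by age in months (points, coloured by library batch), with the mean and SD of each age group drawn beside the points (the SD of Car3 reaches below the axis). Car4 falls from 508 CPM at 15 months to 379.9 CPM at 28 months, Car13 climbs within a narrow range, and Car3 scatters widely, with its highest mice at 24 and 28 months.

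The gene with the clearest loss at old age was Car4, which encodes an enzyme tethered by a lipid anchor to the outer face of the surface cell membrane. Its lowest, median and highest CPM were 366, 454 and 681 in the 3-month mice, 374, 516 and 619 in the 9-month mice, 385, 517 and 603 in the 15-month mice, 314, 423 and 542 in the 24-month mice, and 291, 378 and 499.9 in the 28-month mice. Thus 18 of 18 mice aged 28 months lay below the median of the 15-month mice, and 12 of them lay below every 15-month mouse. The mean ± SD fell from 508 ± 57.2 CPM in the 16 mice aged 15 months through 432 ± 62.7 CPM in the 17 mice aged 24 months, and reached 379.9 ± 47.2 CPM in the 18 oldest. The log2 fold change was -0.23 (SE 0.0730, edgeR adjusted p = 0.034) at 24 against 15 months, where Car4 was the 1 gene of the 10 called lower (background 7.24%). It was -0.42 (SE 0.0721, edgeR adjusted p = 3.84e-06) at 28 against 15 months and -0.33 (SE 0.0719, edgeR adjusted p = 0.000115) at 28 against 3 months. In the 3 library batches the last difference, taken there between means of log2 CPM, was -0.20, -0.23 and -0.48. The means at 3, 9 and 15 months (479, 513 and 508 CPM) did not differ beyond the spread between mice (edgeR adjusted p = 0.479 for 9 against 3 months and 0.972 for 15 against 9 months).

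Car12, a single-pass membrane enzyme with its catalytic domain outside the cell, followed a similar course. The lowest, median and highest CPM of Car12 were 96.5, 121 and 155 in the 3-month mice, 114, 132 and 209.6 in the 9-month mice, 113, 127 and 150.2 in the 15-month mice, 89.1, 115 and 133 in the 24-month mice, and 86.5, 106 and 145 in the 28-month mice. Of the 18 oldest mice, 17 lay below the 9-month median and 11 lay below every 9-month mouse. The log2 fold change was -0.35 (SE 0.0610, edgeR adjusted p = 6.06e-06) at 28 against 9 months, with -0.36, -0.37 and -0.30 in the 3 batches. Against 3 months the fall was smaller, at -0.18 (SE 0.0612, edgeR adjusted p = 0.0144), and in the third batch it was -0.04. The step from 15 to 24 months was -0.15 and did not pass the threshold (SE 0.0620, edgeR adjusted p = 0.117), but passed without the 5 mice of low marker level (-0.16, edgeR adjusted p = 0.0896), with only the 2 ages compared (edgeR adjusted p = 0.047) and with a distal colon score as a covariate (edgeR adjusted p = 0.0384).

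Car4 and Car12 were also the 2 of the 10 genes that departed from a straight line in age (edgeR adjusted p = 0.0179 and 0.0219, background 16.2% of all genes tested). Car1 did not pass this test (edgeR adjusted p = 0.15), but passed with the distal colon score and with the smooth muscle score as a covariate. Car4 and Car12 both had their highest means at 9 months and their lowest at 28 months. Over the 83 mice, after the batch means were subtracted, the log2 CPM of Car4 and Car12 had Pearson's r of 0.393 and Spearman's rho of 0.402 (permutation p adjusted over 48 relations 0.00123 and 0.000864). The r was 0.443 without the 2 mice farthest from the median of Car4, 0.609, 0.197 and 0.355 within the 3 batches, and between -0.14 and 0.67 within single ages.

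The promoters of Car4 and Car12 are shown because these genes fell together, and a stretch before Car9 because it holds the core of a hypoxia response element. The sequences are from RefSeq on GRCm38.p6 and all 3 are on the plus strand. Those of Car4 (chr11:84957504-84957753) and Car12 (chr9:66713436-66713685) are the 250 bases before the transcription start, and that of Car9 (chr4:43506996-43507025) is the last 30 bases before it. Capitals mark ACGTG, the hypoxia response core, and GGGCGG, the GC box, on either strand.
Car4: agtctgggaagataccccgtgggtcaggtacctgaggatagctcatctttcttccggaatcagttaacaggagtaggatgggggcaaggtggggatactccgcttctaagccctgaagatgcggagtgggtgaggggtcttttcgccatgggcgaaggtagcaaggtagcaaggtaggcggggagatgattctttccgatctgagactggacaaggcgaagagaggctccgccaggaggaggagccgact
Car12: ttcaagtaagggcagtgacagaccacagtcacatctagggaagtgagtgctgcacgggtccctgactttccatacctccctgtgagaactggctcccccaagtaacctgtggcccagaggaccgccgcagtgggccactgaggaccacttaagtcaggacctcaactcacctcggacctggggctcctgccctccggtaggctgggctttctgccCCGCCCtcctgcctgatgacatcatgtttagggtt
Car9: ctatttccgatgCACGTacagcccgtccac
The window of Car4 held neither motif, that of Car12 held 1 GC box starting 35 bases before the start, and Car9 held 1 hypoxia response core starting 18 bases before it. The Ensembl model of Car9 begins further upstream than the RefSeq start, so this distance is counted from the RefSeq start. Of 32851 mouse promoters of 250 bases, 16.6% held ACGTG, 32.7% GGGCGG, 12.4% TATAAA (the TATA box) and 9.81% TTTATNG (the core bound by caudal homeobox factors), each on either strand. A run of CACGTG counts as ACGTG on both strands, and TTTATAG holds both of the last 2 motifs. Those 2 were not found in any window of Car4, Car5b, Car7, Car9 and Car12, while Car5b and Car7 also held GC boxes. A match is a run of letters and not a site. The GC content was 56.4% for Car4 and 59.2% for Car12, against a median of 52.4% over all promoters. Promoters of 5 of the 10 genes were in the table used here, and those of Car1, Car2, Car3, Car8 and Car13 were not analysed here.

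Car9 encodes the third surface enzyme, whose gene is a textbook target of the hypoxia-inducible factor. It was the steadiest of the 10 genes, with a coefficient of variation of 8.02% over all mice and a lowest, median and highest value of 61.9, 78.1 and 91.2 CPM. Between 3 and 9 months it rose from 74.5 ± 5.70 to 80.2 ± 6.29 CPM (SD over 16 mice each), a log2 fold change of 0.11 (SE 0.0405, edgeR adjusted p = 0.0969) with 0.15, 0.06 and 0.10 in the batches. No other of the 10 genes was called in that comparison (background 3.64% higher). This call lies just inside the threshold and was lost in 6 of 12 alternatives, among them the fit without the 5 mice of low muscle or epithelial marker level. The difference was 0.08 at 28 against 3 months (SE 0.0394, edgeR adjusted p = 0.103), just outside the threshold. It passed in 9 of 12 alternatives, DESeq2 among them (adjusted p = 0.0717). Leaving out 1 mouse at a time brought it inside in 26 of 34 fits. Car9 overlaps a gene on the opposite strand, and the counting used the strand.

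Hypoxia-inducible genes were examined beside Car9, from a list of 10 (Vegfa, Slc2a1, Pgk1, Ldha, Bnip3, Egln3, Ndrg1, Ankrd37, Adm and Pdk1). At 28 against 3 months 3 of the 10 were higher (background 23.5%) and 2 were lower (background 25.9%). The median log2 fold change was 0.12 against -0.01 over all genes tested. Ndrg1, a stress-response gene, rose by 0.45 (SE 0.0808, edgeR adjusted p = 4.76e-06). Bnip3, a mitophagy receptor, and Pdk1, a kinase that holds back pyruvate oxidation, each rose by 0.23 (edgeR adjusted p = 0.00429 and 0.000543). Of the glycolytic enzymes, Ldha fell by 0.18 (edgeR adjusted p = 0.000766) and Pgk1 fell by 0.09 (edgeR adjusted p = 0.0593). The list went both ways at shares near those of all genes, and none of its 10 genes was called by edgeR at 24 against 15 months. At 9 against 3 months, where Car9 was called, Ndrg1 was higher by 0.31 (edgeR adjusted p = 0.0151) and none of the other 9 was called.

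Car1, by far the most abundant member, encodes a cytosolic enzyme of colonocytes and of red blood cells. The lowest, median and highest CPM of Car1 were 4787, 6403 and 8818 in the 3-month mice, 5247, 7551 and 10404 in the 9-month mice, 5643, 6744 and 8709 in the 15-month mice, 3579, 6333 and 8727 in the 24-month mice, and 4221, 6014 and 11535 in the 28-month mice. The groups overlapped broadly, and the highest mouse of all was among the oldest. Relative to 9 months, Car1 was lower at 24 months by a log2 fold change of -0.33 (SE 0.0956, edgeR adjusted p = 0.0152) and at 28 months by -0.26 (SE 0.0940, edgeR adjusted p = 0.0242), with the same sign in every batch. In all, 16 of 17 mice at 24 months and 15 of 18 at 28 months lay below the 9-month median. Relative to 3 months, the difference at 28 months was -0.04 (95% interval -0.23 to 0.15, edgeR adjusted p = 0.748), with -0.20 and -0.23 in the first and second batch and 0.30 in the third. Its sign turned to 0.00149, 0.0104 and 0.000268 when 3-month replicate 6, 3-month replicate 7 or 28-month replicate 2 was left out. Over 12 other alternatives this difference ran from -0.15 to -0.00194 and was not called in any. With the distal colon score as a covariate Car1 was called at 24 against 15 months (-0.23, edgeR adjusted p = 0.0600). It was also called at 28 against 15 months with that score.

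Red cell RNA was low beside Car1. The summed CPM of 6 erythroid markers (globin genes and Alas2 among them) ranged from 6.10 to 21.7 at 3 months and from 5.76 to 87.4 at 28 months. Of the 6 markers, 5 were higher at 28 against 3 months (background 23.5% of all genes tested). Car1 and Car2 were not called in that comparison. The part of red cells in the RNA of Car1 and Car2 was not tested. No marker was at 0 in all mice of an age.

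Car2, a fast cytosolic enzyme, held a nearly constant level. Its group means lay between 667 ± 41.7 CPM (SD, n = 17) at 24 months and 722 ± 56.8 CPM (SD, n = 16) at 9 months. Over all mice the lowest, median and highest values were 535, 677 and 811 CPM. The log2 fold change was 0.02 for 28 against 3 months, with a 95% interval of -0.07 to 0.11 (edgeR adjusted p = 0.754). The only call was a fall at 24 against 9 months, by 0.12 on the log2 scale (SE 0.0456, edgeR adjusted p = 0.085), which was lost in 5 of 12 alternatives, the fit without the 5 mice of low marker level included.

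Car13, a cytosolic enzyme found in epithelia, was slightly higher in old mice, with similar differences in all 3 batches. Its lowest, median and highest CPM were 36.0, 41.5 and 49.8 in the 3-month mice, 35.2, 42.4 and 48.0 in the 9-month mice, 40.2, 45.1 and 52.5 in the 15-month mice, 36.4, 45.5 and 52.9 in the 24-month mice, and 37.3, 47.9 and 56.9 in the 28-month mice. Of the 18 oldest mice, 15 lay above the 3-month median and 5 above every 3-month mouse. The log2 fold change at 28 against 3 months was 0.18 (SE 0.0397, edgeR adjusted p = 0.000177), with 0.17, 0.17 and 0.19 in the 3 batches. Car13 was already higher at 15 against 3 months, by 0.12 (SE 0.0408, edgeR adjusted p = 0.064, background 4.25% higher), a call that was lost without the batch term, without the filter on low counts and at an adjusted p below 0.05. At 24 against 15 months the difference was -0.01 (95% interval -0.09 to 0.07).

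Car7, a cytosolic enzyme best known from neurons, was scarce but rose by a larger factor. It was covered by 17 to 96 counts in each mouse. The lowest, median and highest CPM were 0.635, 0.994 and 1.29 in the 3-month mice, 0.567, 0.906 and 1.56 in the 9-month mice, 0.690, 1.12 and 1.82 in the 15-month mice, 0.619, 1.32 and 1.67 in the 24-month mice, and 0.707, 1.41 and 1.65 in the 28-month mice. At 28 months 15 of 18 mice lay above the 3-month median and 12 lay above every 3-month mouse. The log2 fold change was 0.38 (SE 0.110, edgeR adjusted p = 0.00318) at 28 against 3 months, with 0.29, 0.43 and 0.38 in the batches, and 0.45 (SE 0.110, edgeR adjusted p = 0.00096) at 28 against 9 months. Of the 4 enteric neuron markers (Elavl4, Uchl1 and Snap25 among them) none was called at 28 against 3 months by edgeR. Their median log2 fold change was -0.20, and their summed level was 10.8 to 48.5 CPM at 3 months and 15.4 to 38.9 CPM at 28 months.

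Car8 encodes the carbonic anhydrase-related protein that binds the inositol trisphosphate receptor. The lowest, median and highest CPM were 74.1, 106 and 143 in the 3-month mice, 102, 115 and 149.8 in the 9-month mice, 87.0, 106 and 143 in the 15-month mice, 79.1, 96.9 and 123 in the 24-month mice, and 60.3, 95.9 and 140.5 in the 28-month mice. At 28 months 15 of 18 mice lay below the 3-month median, and the log2 fold change was -0.19 (SE 0.0795, edgeR adjusted p = 0.0421), with -0.11, -0.34 and -0.17 in the batches. The fall from 9 months was -0.27 (SE 0.0792, edgeR adjusted p = 0.0052). The call against 15 months (-0.20, edgeR adjusted p = 0.0389) was lost without the 5 mice of low marker level. The call against 3 months was kept in 28 of 34 fits that left out 1 mouse. It was lost without 3-month replicate 1, 8 or 9 or 28-month replicate 2, 4 or 14 (-0.16 to -0.15, edgeR adjusted p = 0.108 to 0.124), and in the fit of only these 2 ages (-0.18, edgeR adjusted p = 0.136). Car1 and Car8 each contain a processed pseudogene annotated on the same strand, so reads could have been split there.

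Markers of epithelial cell types were measured in the same comparison as the falls of Car4, Car8 and Car12. At 28 against 3 months, 2 of 6 epithelial markers, 2 of 6 colonocyte markers (Lypd8 and Ceacam20), 5 of 6 goblet cell markers and 4 of 4 tuft cell markers were lower, where 25.9% of all genes tested were. The other goblet cell marker was higher, and of 5 crypt stem cell markers 1 was higher and 1 lower. The summed epithelial markers ranged from 7576 to 9638 CPM at 3 months and from 6885 to 9182 CPM at 28 months, and the colonocyte markers (Krt20, Lypd8, Guca2a, Guca2b, Ceacam20 and Aqp8) from 8684 to 12408 CPM and from 7816 to 12189 CPM. The goblet cell markers ranged from 29175 to 39244 CPM and from 24205 to 34462 CPM, and the tuft cell markers from 47.7 to 64.3 CPM and from 25.4 to 50.6 CPM. None of these markers was at 0 in all mice of an age. The median log2 fold change was -0.08 for the epithelial, -0.04 for the colonocyte, -0.30 for the goblet cell, -0.49 for the tuft cell, -0.21 for the enteroendocrine (3 of 5 lower) and -0.44 for the distal colon list (2 of 4 lower), beside -0.33 for Car4, -0.19 for Car8 and -0.18 for Car12. With the distal colon score as a covariate the differences were -0.28 for Car4, -0.28 for Car8 and -0.23 for Car12 (edgeR adjusted p = 0.000808, 0.00168 and 0.00111). The part of the other lists in the falls was not tested.

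**Figure D3:**
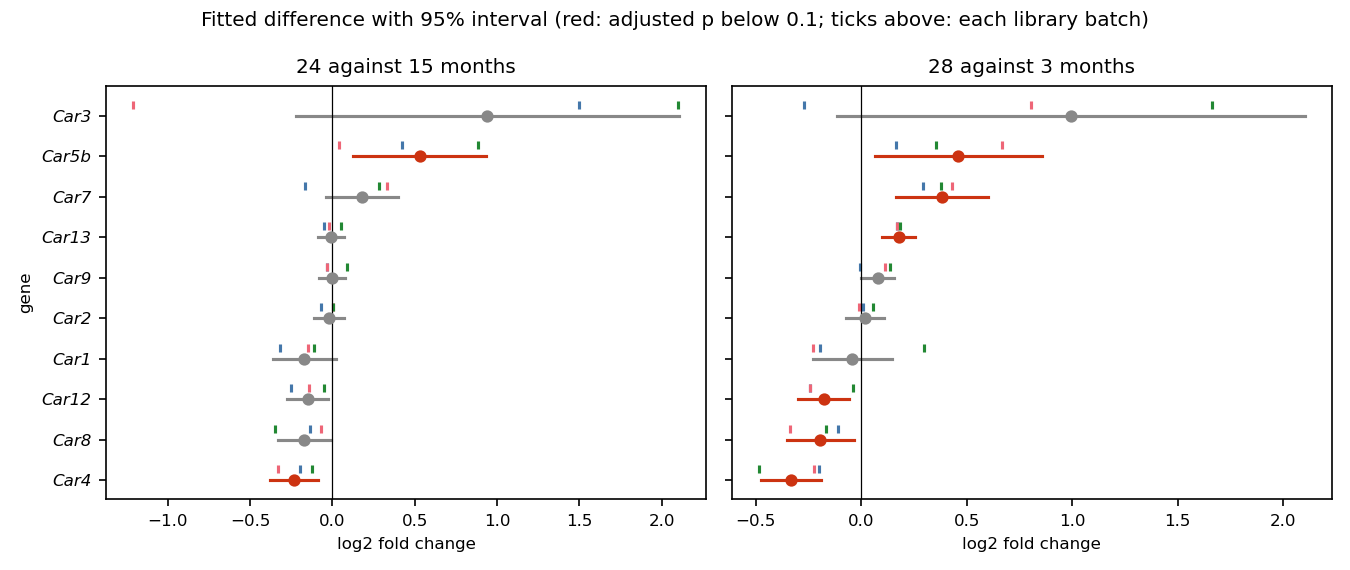
Log2 fold change of each gene at 24 against 15 months (left) and 28 against 3 months (right) with its 95% interval, red where the edgeR adjusted p was below 0.1 and grey otherwise. The coloured ticks above each point are the differences of mean log2 CPM within library batch 1 (blue), 2 (red) and 3 (green). They point both ways for Car3 but one way for Car4 and Car5b in both comparisons.

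Car3 stood apart from all the others by its variation between mice. It encodes a cytosolic enzyme of low activity that is abundant in fat cells and skeletal muscle. Its lowest, median and highest CPM were 1.87, 12.6 and 75.5 in the 3-month mice, 1.08, 22.4 and 115 in the 9-month mice, 1.09, 20.9 and 63.9 in the 15-month mice, 1.41, 21.8 and 169 in the 24-month mice, and 1.25, 26.4 and 208 in the 28-month mice. The highest mouse exceeded the lowest 193-fold, and the coefficient of variation was 114%, against 8.02% for Car9 and 21.5% for Car1. The youngest mice averaged 20.9 ± 21.1 CPM (SD, n = 16) and the oldest 40.8 ± 49.3 CPM (SD, n = 18), a log2 fold change of 0.99 that did not pass the threshold (SE 0.557, edgeR adjusted p = 0.144). It passed with only the 2 ages compared (1.19, edgeR adjusted p = 0.0613) and with the distal colon score as a covariate (1.15, edgeR adjusted p = 0.0995). Within the batches this difference was -0.27, 0.81 and 1.66. At 24 against 15 months the batches gave 1.498, -1.21 and 2.101. Without 3-month replicate 11 the difference at 28 against 3 months became 1.32 and passed (edgeR adjusted p = 0.053).

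The level of Car3 followed the fat cell markers mouse by mouse. An adipocyte score, the mean log2 CPM of Adipoq, Plin1, Cidec, Cfd, Plin4 and Lep, had Pearson's r of 0.984 and Spearman's rho of 0.980 with the log2 CPM of Car3 over 83 mice after subtraction of the batch means (permutation p adjusted over 48 relations 8e-05 for both, from 1e-05, the smallest that 100000 permutations can give). Within the 3 batches r was 0.981, 0.989 and 0.983, within single ages it was between 0.981 and 0.998, and without the 2 mice farthest from the median score it was 0.983. The score of 6 skeletal muscle markers, which averaged from 0.00878 CPM (the fast myosin Myh4) to 16.03 CPM, had an r of 0.154 and a rho of 0.136 with Car3 (adjusted permutation p = 0.278 and 0.425). Of the 4 skeletal muscle markers that could be tested, 2 were higher at 28 against 3 months (background 23.5%) and 2 at 24 against 15 months (background 6.28%). Adipocyte markers summed to 23.2 to 153 CPM at 3 months and 31.2 to 299 CPM at 28 months, and none was at 0 in all mice of an age. At 28 against 3 months 2 of the 6 (Cidec and Plin4) were higher (background 23.5%), while Adipoq, Plin1, Cfd and Lep were not called. Cidec and Plin4 had at least 8.28 and 4.16 CPM in every mouse, whereas Adipoq, Plin1 and Lep were at 0 in 2, 4 and 12 mice. With the score as a covariate, the difference of Car3 at 28 against 3 months was 0.40 (SE 0.107, edgeR adjusted p = 0.00142). The part of fat cells in the age difference was not tested further.

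Car5b, the mitochondrial enzyme, shared this relation at a far lower level. It was covered by 22 to 247 counts in each mouse, and the lowest, median and highest CPM were 0.861, 1.69 and 2.77 in the 3-month mice, 1.03, 1.83 and 4.002 in the 9-month mice, 0.929, 1.56 and 3.08 in the 15-month mice, 1.17, 2.01 and 6.53 in the 24-month mice, and 0.915, 1.88 and 5.97 in the 28-month mice. The groups overlapped, and 4 mice at 24 months and 3 at 28 months lay above every 15-month mouse. At 24 against 15 months Car5b was higher by 0.53 on the log2 scale (SE 0.203, edgeR adjusted p = 0.0887, background 6.28% higher), at 28 against 3 months by 0.46 (SE 0.199, edgeR adjusted p = 0.0549) and at 28 against 15 months by 0.44 (edgeR adjusted p = 0.0747). The last of these was lost without the filter on low counts (edgeR adjusted p = 0.115), with the replicate block (edgeR adjusted p = 0.11) and at an adjusted p below 0.05. The call at 24 against 15 months was lost in 6 of 12 alternatives, among them the fit without the 5 mice of low marker level (0.49, edgeR adjusted p = 0.112). Without these 5 mice the call at 28 against 3 months was lost (0.35, edgeR adjusted p = 0.177), as it was without 28-month replicate 14 (0.33, edgeR adjusted p = 0.168) and with a smooth muscle score as a covariate (0.33, edgeR adjusted p = 0.162).

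Car5b had an r of 0.777 and a rho of 0.857 with the adipocyte score, and an r of 0.821 and a rho of 0.887 with Car3 (adjusted permutation p = 8e-05 for all). The r with the score was 0.818, 0.666 and 0.827 within the 3 batches and 0.791 without the 2 mice farthest from the median score. That with Car3 was 0.868, 0.733 and 0.845 within the batches and 0.832 without the 2 farthest. With the score as a covariate Car5b was still higher at 28 against 3 months, by 0.33 (SE 0.121, edgeR adjusted p = 0.0238).

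**Figure D4:**
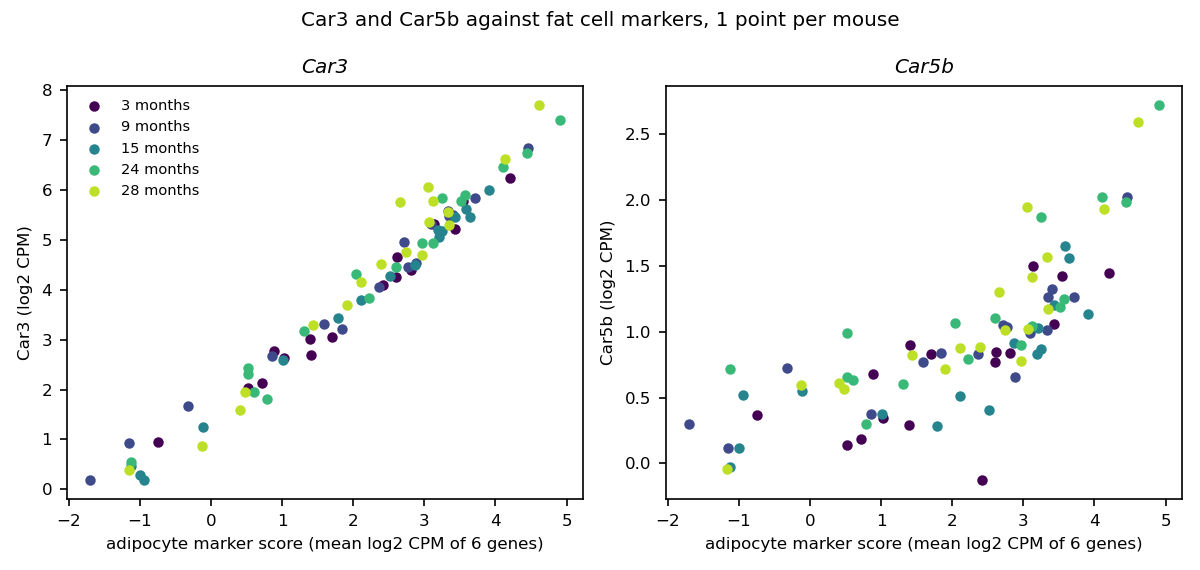
Log2 CPM of Car3 (left) and Car5b (right) against the adipocyte score (mean log2 CPM of 6 fat cell genes), 1 point per mouse, coloured by age in months. The points of Car3 lie along a narrow line (r = 0.984 after subtraction of batch means) and those of Car5b along a broader one (r = 0.777), with mice of every age spread over the score.

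Of the remaining pairs of ages, 24 against 9 months held the most calls, with 5 of the 10 genes lower (Car1, Car2, Car4, Car8 and Car12, background 6.55%) and 2 higher (Car7 and Car13, background 8.93%). At 28 against 9 months 4 were lower (Car1, Car4, Car8 and Car12) and 2 higher (Car7 and Car13), where 20% of all genes were called in each direction. At 28 against 15 months 3 were lower (Car4, Car8 and Car12, background 22.2%) and 1 was higher (Car5b, background 20.2%). At 24 against 3 months 3 were higher (Car5b, Car7 and Car13, background 16.7%). Without the 5 mice of low marker level Car5b was lost there (0.42, edgeR adjusted p = 0.161) and Car8 passed, and with a smooth muscle score Car5b was lost as well (edgeR adjusted p = 0.358). These comparisons share groups of mice and are not independent of each other.

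No member was called by edgeR at 15 against 9 months (background 0.431% in either direction) or at 28 against 24 months (background 11.7%), and DESeq2 called none either. At an unadjusted p below 0.05, 3 members differed in the former (background 9.18%) and 1 in the latter (background 22%), which was Car4 (log2 fold change -0.18, edgeR adjusted p = 0.101). Without the 5 mice of low marker level Car4 passed. The test of whether the age differences varied between library batches called 0 members (background 0.0218%), 0 by DESeq2 and 0 at an unadjusted p below 0.05 (background 3.78%). The lowest unadjusted edgeR p in that test was 0.0607, for Car4.

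The 10 genes were also compared with each other across the mice, in 45 pairs among the 48 relations, on log2 CPM after subtraction of the batch means. Besides Car3 with Car5b, the highest positive values were those of Car1 with Car2 (r = 0.636, rho = 0.552) and of Car1 with Car12 (r = 0.627, rho = 0.648), both at an adjusted permutation p of 8e-05. Within the 3 batches these were 0.706, 0.357 and 0.698 for Car1 with Car2 and 0.606, 0.664 and 0.642 for Car1 with Car12. Without the 2 mice farthest from the median of Car1, r was 0.602 and 0.681, and within single ages it was 0.567 to 0.783 and 0.132 to 0.774. Car1 lies near Car2 on chromosome 3 but on another chromosome than Car12.

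Car7 had negative values with Car12 and Car1. Its r was -0.49 with Car12 (rho = -0.46, adjusted permutation p = 8e-05 for both) and -0.43 with Car1 (rho = -0.45, adjusted permutation p = 0.000343 and 0.000274). Within the 3 batches the first was -0.42, -0.61 and -0.44 and the second -0.38, -0.61 and -0.39, and without the 2 mice farthest from the median they were -0.44 and -0.44. Within single ages the first was between -0.49 and -0.15, while the second was between -0.84 and 0.34 and so changed sign. Car1 and Car4, the most abundant cytosolic and surface enzymes besides Car2, had an r of 0.03 (rho = 0.11, adjusted permutation p = 0.901 and 0.499) and within the batches 0.185, 0.051 and -0.13. All these values share the library of each mouse and its cell mixture.

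For each gene, the 3 genes of the whole tested table with the most similar pattern over the 83 mice were found by Pearson's r of log2 CPM after subtraction of the batch means. These values describe likeness and carry no test. Car3 was most like Adipoq (r = 0.980), Retn (0.977) and Plin1 (0.973), and Car5b most like Trf (0.901), Fabp4 (0.893) and Scd1 (0.877). Both triplets were the same when the age-group means were subtracted too. Car1 was most like Maoa (0.850), Riok3 (0.831) and Tmigd1 (0.735), and Car2 like Nln (0.665), Maoa (0.653) and Aldh1a1 (0.649).

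Car4 was most like Saa1 (0.770), Cyp2d10 (0.763) and Pcyox1l (0.733), of which the former 2 remained with the age-group means subtracted. Car12 was most like Oma1 (0.734), Cyp2c65 (0.716) and Chn2 (0.708), and Car13 was close to Zfp91 (0.704) and Alg6 (0.701). For Car8 the nearest genes were C1galt1c1 (0.687), Pde1c (0.672) and Rnf128 (0.645), for Car7 they were Camk1 (0.613), Tmem198b (0.593) and Adamts10 (0.593), and for Car9 they were Gstm1 (0.562), Aldh2 (0.550) and Gpi1 (0.549). For Car8, Car9, Car12 and Car13 none of the 3 genes remained among the 3 nearest when the age-group means were subtracted. No carbonic anhydrase was among the 3 nearest genes of another.

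The count table lists 6 other family genes. Car5a, Car6 and Car10 were near 0 (means of 0.0266, 0.0435 and 0.155 CPM) and did not pass the filter, and Car11, Car14 and Car15 were low (4.97, 0.990 and 1.41 TPM). At 28 against 3 months Car14, a membrane enzyme, was higher by 0.86 (SE 0.183, edgeR adjusted p = 8.85e-05), and Car11, a secreted related protein, and Car15 were lower by a log2 fold change of -0.52 and -0.53 (edgeR adjusted p = 5.9e-06 and 0.000689). Car14 averaged 0.637 ± 0.336 CPM in the youngest (SD, n = 16) and 1.18 ± 0.423 CPM in the oldest mice (SD, n = 18), with 0.83, 0.63 and 1.44 in the batches. Car15 overlaps another gene on the same strand and its counts are uncertain.

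Carbonic anhydrases work beside ion transporters, and 18 such partners were listed (among them Slc26a3, Slc26a6, Slc4a1, Slc4a2, Slc4a4, Slc4a7, Slc9a2, Slc9a3, Slc9a8, Cftr, Ano1, Best2, Slc12a2, Atp12a, Slc16a1, Slc9a3r1 and Slc9a3r2), of which 17 were tested and Slc4a1, the red cell anion exchanger, was near 0 (0.0304 CPM). Between 3 and 28 months 4 of the 17 were higher (background 23.5%) and 4 were lower (background 25.9%), with a median log2 fold change of -0.03. These shares are near those of all genes tested. The largest difference was that of Atp12a, the colonic proton-potassium pump, which fell by 2.00 on the log2 scale (SE 0.372, edgeR adjusted p = 8.97e-06), with -1.50, -1.01 and -2.54 in the batches. At 24 against 15 months Atp12a was the only one of the 17 that was called, at -1.31 (edgeR adjusted p = 0.0184, background 7.24% lower). Its level differed widely between mice, from 0.627 to 44.1 CPM. A relation of Atp12a to Car4, which was called lower in the same interval, or to the distal colon genes was not tested.

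Among the other partners, Slc9a3, the apical sodium-proton exchanger, rose by 0.36 (SE 0.119, edgeR adjusted p = 0.0114), although it was -0.01 in the second batch. Slc9a8, another exchanger, rose by 0.12 (edgeR adjusted p = 0.0139). Slc9a2, a further exchanger, and Slc9a3r2, a scaffold of Slc9a3, each rose by 0.13 (edgeR adjusted p = 0.0085 and 0.0192). The bicarbonate exchangers Slc26a6 and Slc4a2 were lower, at -0.33 and -0.11 (edgeR adjusted p = 9.75e-05 and 0.0147). Slc26a3, the main chloride-bicarbonate exchanger of the colon surface, differed by -0.07 (edgeR adjusted p = 0.499).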

How the data were processed

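RNA of the colon of 83 mice was sequenced with a stranded polyA protocol. According to the methods and the submitters' processing notes, reads were trimmed with cutadapt 2.8 and PrinSeq Lite, aligned with HISAT2 2.1.0 to GRCm38, handled with SAMtools 1.9 and counted by strand with featureCounts of Subread 2.0.1. The authors deposited whole-number counts per Ensembl gene, without normalization. The groups are the ages in the labels. Every gene of the table was used: of 37764 genes, 18325 passed edgeR's filterByExpr by age. Counts were scaled by TMM and tested with edgeR 4.0.16 (quasi-likelihood, age and library batch, R 4.3.3, limma 3.58.1), with Benjamini-Hochberg adjustment over all genes tested and a threshold of 0.1, the SE being the absolute log2 fold change divided by the square root of F. The 10 pairs of ages, any difference among ages, the departure from a straight line and the interaction of batch with age were tested. Log2 CPM used a prior count of 2. Differences within a library batch are differences between group means of log2 CPM and not edgeR fits. TPM used merged exon lengths of GENCODE annotation on GRCm38, matched for 37652 genes, while 112 had none. Correlations between mice used 100000 two-sided permutations. The tests were checked on simulated data.

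The genes named are the 10 members, the genes of the lists and the 3 genes most like each member. The members and lists were chosen with earlier results of these data known. Marker genes at 109 of 110 listed symbols were found in the table. Alternatives were DESeq2 1.42.0 and its size factors, no batch term, no filter, a minimum of 10 counts in all mice, a replicate block, an adjusted p below 0.05, only the 2 ages compared, adipocyte and distal colon scores as covariates, each 3- and 28-month mouse left out in turn, TPM in place of CPM and, for the likeness of genes, subtraction of the age means. The fits without 5 mice and with a smooth muscle score were chosen after seeing the data. The 5 mice were those with smooth muscle markers under 1300 CPM or epithelial markers under 6000 CPM. Nothing in the labels ties the mice to cages or litters, so p-values measure the spread between mice. Counts of different mice of an age differed by more than sampling noise in all 649 pairs. Figures were drawn with matplotlib 3.10.9. Single values of some listed or most alike genes are not reported here.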

Additional observations from a re-analysis of the deposited data

How the results depend on the processing

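At 28 against 3 months Car4, Car7, Car12 and Car13 kept their direction and their calls under every alternative and in all 34 fits that left out 1 mouse, with log2 fold changes of -0.36 to -0.28, 0.36 to 0.43, -0.21 to -0.14 and 0.16 to 0.21 over those 34 fits. The number of called genes there was 5 to 8 in these fits, against 6. Car1 ranged from -0.10 to 0.01, Car2 from 0.00 to 0.06, Car3 from 0.64 to 1.32, Car5b from 0.33 to 0.53, Car8 from -0.23 to -0.15 and Car9 from 0.07 to 0.11. Over the 12 other alternatives Car4 ranged from -0.34 to -0.27, Car7 from 0.31 to 0.44, Car12 from -0.23 to -0.12 and Car13 from 0.16 to 0.23. Car1 changed sign without 3-month replicate 6 (0.0015), 3-month replicate 7 (0.010) or 28-month replicate 2 (0.00027), and Car2 with the distal colon score as a covariate (-0.019). At 24 against 15 months Car9 changed sign without the filter (0.0012), with the smooth muscle score (0.0038) and with only the 2 ages compared (0.0053), and Car13 without the 5 mice (0.0042) and with the smooth muscle score (0.0064). All of these values are within 1 SE of 0.

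Apart from the replicate block, the number of called genes moved by more than 1.5 times, or to or from 0, in the following cases, and by 1.5 times or less, if at all, in the others. At 9 against 3 months it was 1, and became 2 with DESeq2, with at least 10 counts in every mouse, with the distal colon score and with the smooth muscle score, and 0 without the filter, without the batch term, without the 5 mice, with only the 2 ages compared and at an adjusted p below 0.05. At 15 against 3 months 1 became 0 without the filter, without the batch term and at an adjusted p below 0.05. At 15 against 9 months 0 became 1 with the smooth muscle score. At 24 against 15 months 2 became 5 with the distal colon score, where Car1, Car8 and Car12 were gained. The number became 1 there without the filter, with the smooth muscle score and at an adjusted p below 0.05. At 28 against 24 months 0 became 1 without the batch term, without the 5 mice, with the smooth muscle score and with only the 2 ages compared. The cause was not tested.

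Samples with the same replicate number did not deviate together (161 pairs, median r 0.0103, 27 pairs over 0.1, and 3 of 83 mice correlated best with their own number), so the numbers do not pair the mice. A replicate block gave 0 called genes at 9 against 3 months, 1 at 15 against 3, 0 at 15 against 9, 3 at 24 against 3, 7 at 24 against 9, 1 at 24 against 15, 7 at 28 against 3, 6 at 28 against 9, 3 at 28 against 15 and 0 at 28 against 24 months. With the block 7 genes differed among the ages, 2 departed from a straight line and 0 had an interaction.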
